A study of Homo sapiens with 15 samples.

Results

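The genes that divide small cell lung cancer (SCLC) into subtypes, together with genes of its neuroendocrine (NE) programme, were followed in H196 cells, a non-NE SCLC line, and in MRC5 cells, a human lung fibroblast line. The group holds 9 genes chosen by name, NEUROD1, POU2F3, YAP1, WWTR1, REST, INSM1, MYCL, SYP and NCAM1, out of 17138 genes listed for either line. H196 cells came from a mono-culture (H196_Mo) or from a co-culture with MRC5 cells (H196_Co). MRC5 cells were grown alone (MRC5_Mo), with H69 cells, an NE SCLC line that served only as a partner (MRC5_CoH69), or with H196 cells (MRC5_CoH196). The partner grew on a transwell insert for a week, so the lines shared medium but not a surface. The authors kept SCLC lines in RPMI medium and MRC5 cells in MEM, and they do not state the medium of the co-cultures. Each group had 3 libraries of poly(A) RNA, 15 in all. The labels name no genetic change and no drug for any group, and each line stands for its tumour type or tissue through 1 established culture. The labels number the libraries of a group but do not say that they came from separate cultures, so p-values measure the spread between these libraries, which may be technical.

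SCLC is sorted by the regulator that dominates a tumour. NEUROD1 is a neural transcription factor that drives NE tumours, POU2F3 marks tumours like the chemosensory tuft cells of the airway, and YAP1 is found in tumours with few NE features. YAP1 and its paralog TAZ, the product of WWTR1, are coactivators held out of the nucleus by the Hippo kinases, and they act on DNA through the TEAD factors. REST silences neuronal genes outside the nervous system through a DNA element called RE1, with corepressors such as RCOR1. INSM1 is a zinc finger factor of NE cells, SYP encodes the synaptic vesicle protein synaptophysin, NCAM1 encodes the adhesion molecule CD56, and MYCL is the MYC family member often amplified in NE SCLC.

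In the deposited annotation (GRCh38.p13) YAP1 spans chr11:102109827-102233424, WWTR1 chr3:149517235-149736714, REST chr4:56907900-56935847, MYCL chr1:39895428-39901917 and SYP chrX:49187812-49200202. NEUROD1 spans chr2:181661826-181684673, POU2F3 chr11:120236638-120319945 and NCAM1 chr11:112961420-113314482. RefSeq starts in GRCh38.p14 gave 8 promoter windows for 6 of the 9 members, each of the 250 bases before a gene start. The windows of the 3 abundant members that passed as higher in MRC5_CoH196 cells, YAP1 (chr11:102110197-102110446, plus strand), WWTR1 (chr3:149658026-149658275, minus strand) and REST (chr4:56907650-56907899, plus strand), are shown with that of SYP (chrX:49200194-49200443, minus strand), the NE gene that H196 cells expressed. Capitals mark the TEAD motif GGAATG and the E box CACGTG, which MYC family proteins can bind.
YAP1: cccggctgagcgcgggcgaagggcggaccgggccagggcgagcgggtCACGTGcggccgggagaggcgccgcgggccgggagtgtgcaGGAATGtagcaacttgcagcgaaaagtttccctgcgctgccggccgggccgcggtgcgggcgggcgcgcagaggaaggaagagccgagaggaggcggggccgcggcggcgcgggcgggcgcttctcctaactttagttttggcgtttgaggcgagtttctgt
WWTR1: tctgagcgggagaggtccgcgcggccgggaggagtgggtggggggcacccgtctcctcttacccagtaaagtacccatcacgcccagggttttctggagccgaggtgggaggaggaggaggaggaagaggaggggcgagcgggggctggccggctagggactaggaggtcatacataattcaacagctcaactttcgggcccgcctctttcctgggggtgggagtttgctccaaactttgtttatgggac
REST: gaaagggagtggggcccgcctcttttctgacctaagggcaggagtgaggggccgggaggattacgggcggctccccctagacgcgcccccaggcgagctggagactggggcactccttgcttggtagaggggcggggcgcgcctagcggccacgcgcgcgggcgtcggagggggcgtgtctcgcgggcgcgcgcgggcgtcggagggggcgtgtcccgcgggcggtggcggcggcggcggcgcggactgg
SYP: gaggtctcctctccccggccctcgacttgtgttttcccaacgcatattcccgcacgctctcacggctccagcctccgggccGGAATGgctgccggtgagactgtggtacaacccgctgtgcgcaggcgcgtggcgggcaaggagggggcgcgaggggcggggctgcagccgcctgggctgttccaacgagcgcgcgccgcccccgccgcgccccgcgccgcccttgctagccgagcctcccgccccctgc
Both strands were searched for the TEAD motif, for the E box, which reads the same on both, and for CAGCACC, a stretch from the left part of RE1. The YAP1 window held the E box at position -203 and the TEAD motif at position -162, counted back from the RefSeq start, and the SYP window held the TEAD motif at -169. None of the 3 motifs was found in the windows of WWTR1 (2 windows), REST (2 windows), NEUROD1 or MYCL. Over 35116 windows of all genes, 11.9% held the TEAD motif, 6.3% the E box and 6.2% the RE1 stretch, so such a match is not rare, and it describes letters and not a bound site. The YAP1, REST and SYP windows shown were rich in G and C (72%, 76.8% and 74%), and that of WWTR1 less so (62%), beside a median of 58% over all windows.

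H196 libraries held 16073597 to 17358349 counts and MRC5 libraries 18476890 to 19170560. Where a library has no count of a gene, the data allow up to 3 counts, that is 0.157 to 0.187 CPM (counts scaled to library size), a limit for counting error only. The 10 fibroblast markers checked, COL1A1 among them, summed to 0.5 to 0.64 FPKM (fragments scaled to gene length and library size) in H196 libraries and to 2566 to 6154 FPKM in MRC5 libraries. In bulk RNA, fewer cells of a type and less RNA per cell cannot be told apart. Genes were tested with edgeR's quasi-likelihood test on counts, and a gene passed at a Benjamini-Hochberg adjusted p under 0.05 over all genes tested. A log2 fold change is from that test unless a scale is named, and levels are compared between genes only in FPKM.

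NEUROD1, POU2F3 and NCAM1 were at the limit of detection in H196 cells, with and without MRC5 cells. NEUROD1 had 1, 0 and 4 counts in the 3 H196_Mo libraries and 2, 4 and 1 in the H196_Co libraries, and it was not listed for MRC5 cells. POU2F3 had 0, 1 and 0 counts in both H196 groups. NCAM1 was at 0 in every H196_Mo library and had 0, 0 and 1 counts in H196_Co cells. The groups overlapped for all 3 genes, and a difference between them was not detectable at this depth. INSM1 was listed for neither line. No listed gene was at 0 in every library of its line, so an unlisted gene was read as not detected.

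In MRC5 cells POU2F3 had 5, 1 and 1 counts alone, 4, 1 and 0 with H69 cells and 2, 1 and 1 with H196 cells, and these groups overlapped. NCAM1 had 1 count in each MRC5_Mo library, 2, 1 and 0 in MRC5_CoH69 cells and 3, 4 and 6 in MRC5_CoH196 cells. The 3 libraries with H196 cells were the highest for NCAM1, but they lay at or barely above the limit and too low for a test. The filter on low counts removed POU2F3, NCAM1 and NEUROD1 in both lines.

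**Figure D1:**
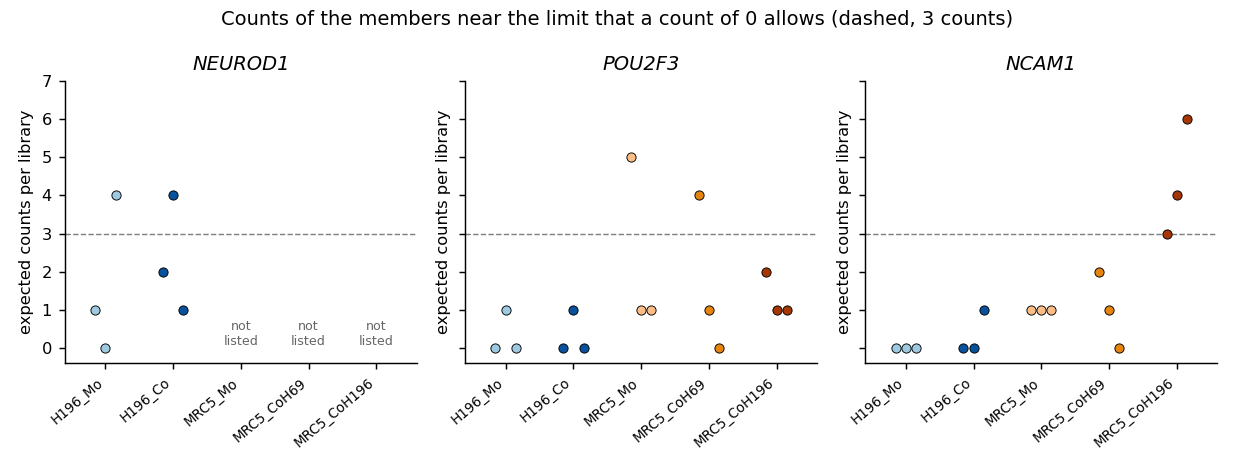
Expected counts of NEUROD1, POU2F3 and NCAM1 in each of the 15 libraries, by group, with the limit of 3 counts that a count of 0 allows as a dashed line. No library holds more than 6 counts of these genes, and NEUROD1 is not listed for MRC5 cells.

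CHGA, an NE secretory granule protein, had 2 to 8 counts in H196_Mo and 5 to 6 in H196_Co libraries. MYCN was at 0 in every H196_Mo library and had at most 1 count in H196_Co libraries.

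SYP was the NE member that H196 cells expressed. Its level was 8.38, 8.79 and 8.96 FPKM in the H196_Mo libraries and 7.61, 8.58 and 8.46 FPKM in the H196_Co libraries, on 280 to 332 counts. The groups overlapped, and the log2 fold change in H196_Co cells was -0.01 (95% interval -0.20 to 0.18, adjusted p = 0.956). In MRC5 libraries SYP had 0 to 7 counts, without regard to the partner. H196_Mo cells held 62.5-fold more SYP than MRC5_Mo cells (log2 fold change 5.97, standard error 0.24, adjusted p = 2.76e-19). SYP entered that test through its H196 counts, so a difference was bound to appear.

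Some other NE genes were expressed in H196 cells as well. The granule proteins CHGB and SCG2 had 19 ± 1.01 and 21.5 ± 0.55 FPKM in H196_Mo cells and 18.6 ± 0.937 and 21.9 ± 2.13 FPKM in H196_Co cells (SD, n = 3). DLL3, an inhibitory Notch ligand, had 4.04 ± 0.524 and 4.57 ± 0.532 FPKM. The 13 NE markers, of which 9 were listed for H196 cells, summed to 52.7 to 54.8 FPKM in H196_Mo, 52.4 to 55.9 in H196_Co and 0.56 to 1.18 in MRC5 libraries. The 7 tuft markers, with POU2F3 among them, summed to under 1 FPKM in every library. Of the NE markers, SCG2, CHGB, SYP and DLL3 were those at 1 FPKM or more in this line labelled non-NE.

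MYCL was low in both lines. Its level was 0.75, 0.61 and 0.83 FPKM in H196_Mo and 0.91, 0.94 and 0.91 FPKM in H196_Co libraries, on 29 to 37 and 42 to 43 counts. Every H196_Co library lay above every H196_Mo library, and 37.2% of all genes tested had groups that did not overlap. The log2 fold change of 0.44 (95% interval 0.04 to 0.84) did not pass (adjusted p = 0.112). MYC was the abundant family member, with 35.8 ± 2.53 FPKM in H196_Mo and 52.2 ± 3.63 FPKM in H196_Co cells (SD, n = 3), and it rose in H196_Co cells (log2 fold change 0.62, adjusted p = 6.14e-06). H196_Mo cells held more MYCL than MRC5_Mo cells (log2 fold change 1.84, standard error 0.27, adjusted p = 5.07e-07), on 29 to 37 against 5 to 9 counts. MYCL too met the filter on low counts through libraries other than those of MRC5_Mo, so a difference was bound to appear.

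In MRC5 cells MYCL had 0.13, 0.17 and 0.11 FPKM alone, 0.11, 0.09 and 0.11 FPKM with H69 cells and 0.26, 0.28 and 0.29 FPKM with H196 cells. All libraries with H196 cells lay above all other MRC5 libraries, and 75.5% of all genes tested had MRC5_CoH196 and MRC5_Mo groups that did not overlap. On 15 to 17 counts against 5 to 9, the log2 fold change in MRC5_CoH196 cells was 1.27 (95% interval 0.57 to 1.97, adjusted p = 0.00167), and on log2(FPKM + 1), which draws small values together, it was 0.17 (adjusted p = 0.00578). Since MYCL passed the filter on low counts in MRC5 cells only through the MRC5_CoH196 libraries, a difference was bound to appear. In MRC5_CoH69 cells the log2 fold change of MYCL was -0.44 (adjusted p = 0.656). MYC rose in MRC5_CoH196 cells as well, from 12.8 ± 0.830 to 22.6 ± 1.3 FPKM (SD, n = 3), a log2 fold change of 1.0 (adjusted p = 3.07e-13).

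**Figure D2:**
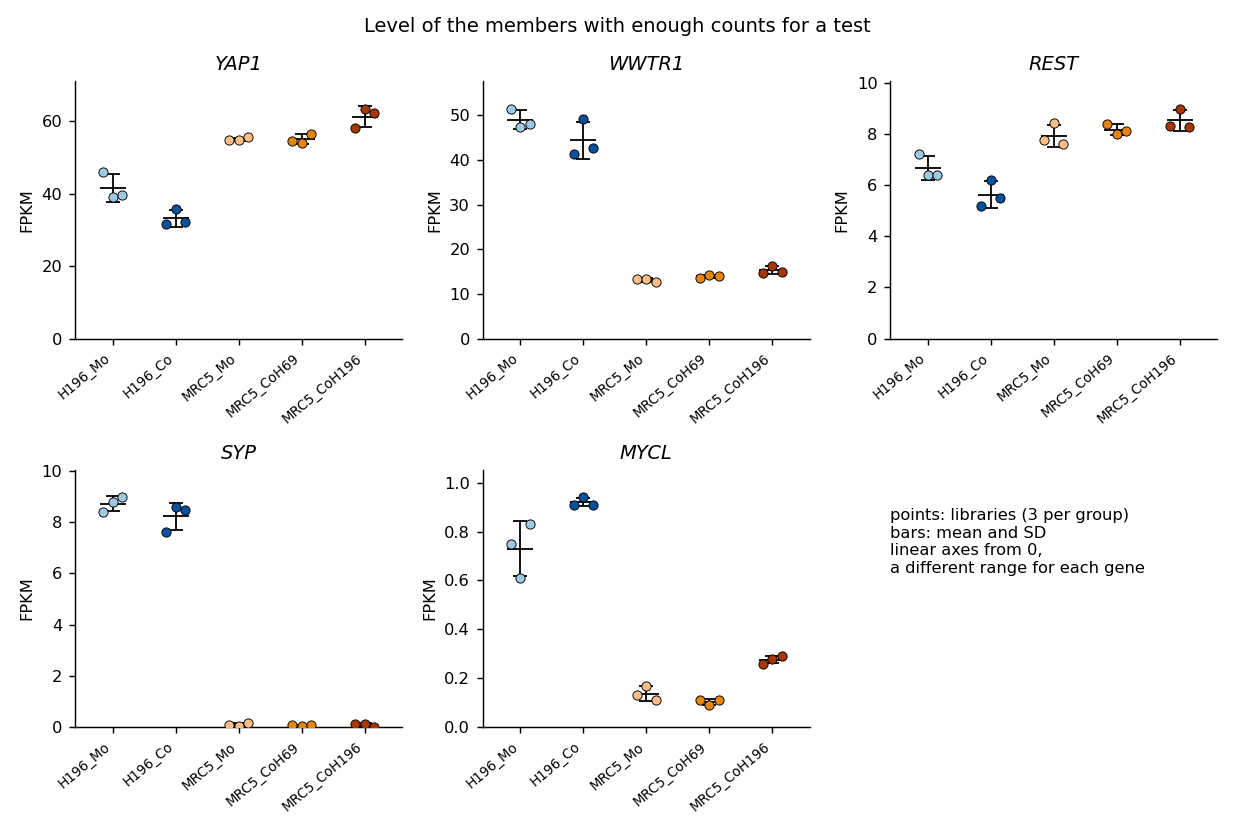
Level of YAP1, WWTR1, REST, SYP and MYCL in FPKM in each of the 15 libraries, by group, with the mean and SD of 3 libraries, on linear axes from 0. WWTR1 and SYP stand higher in H196 than in MRC5 libraries, YAP1 and REST lower, and MYCL stays under 1 FPKM throughout.

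YAP1 and WWTR1 were the most abundant members in both lines, in opposite order. In H196_Mo libraries YAP1 had 45.9, 38.9 and 39.6 FPKM and WWTR1 had 51.5, 47.4 and 48.0 FPKM, so WWTR1 was the higher in each. In MRC5_Mo libraries YAP1 had 54.7, 54.7 and 55.5 FPKM and WWTR1 had 13.2, 13.4 and 12.7 FPKM. Within a library the ratio of YAP1 to WWTR1 was 0.820 to 0.892 in H196_Mo and 4.09 to 4.37 in MRC5_Mo cells, and these ranges lie far apart. In the test on counts, H196_Mo cells held less YAP1 than MRC5_Mo cells (-0.88 on the log2 scale with a standard error of 0.055, adjusted p = 1.24e-14) and more WWTR1 (1.46, standard error 0.058, adjusted p = 1.81e-19). The sum of both coactivators was 90.5 ± 6.02 FPKM in H196_Mo and 68.1 ± 0.111 FPKM in MRC5_Mo cells (SD, n = 3), on a scale on which genes as a whole stood higher in H196_Mo cells (a median of 0.34 on log2(FPKM + 1)).

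All 5 members tested across the lines passed, 3 higher and 2 lower in H196_Mo cells, where 86.6% of the 13585 genes tested passed (44% higher and 42.6% lower), so passing says little of these members. The lines were deposited in separate tables and kept in different media, so line, table and medium cannot be told apart. On log2(FPKM + 1) YAP1 differed by -0.40 and REST by -0.22, with the sign kept.

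In H196_Co cells YAP1 fell a little. It had 31.5, 35.8 and 32.2 FPKM in the 3 H196_Co libraries, each below the lowest H196_Mo library, where 37.2% of all genes tested had groups that did not overlap. The log2 fold change was -0.22 (standard error 0.073, 95% interval -0.38 to -0.07, adjusted p = 0.0346), or 0.856-fold. It was the 1 member of 5 tested that passed, where 19.8% of the 12806 genes tested passed and 7.78% were lower. The call was close to the threshold. It was lost without H196_Mo replicate 1 (log2 fold change -0.16, adjusted p = 0.15), H196_Mo replicate 3 (-0.25, adjusted p = 0.0706), H196_Co replicate 1 (-0.20, adjusted p = 0.0884) or H196_Co replicate 3 (-0.22, adjusted p = 0.112), while the sign was kept throughout.

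WWTR1 had 41.3, 49.1 and 42.8 FPKM in H196_Co libraries, which overlapped with the H196_Mo libraries. Its log2 fold change of -0.07 (95% interval -0.21 to 0.08, adjusted p = 0.545) was smaller than its error. The ratio of YAP1 to WWTR1 was 0.728 to 0.762 in H196_Co cells, below the H196_Mo range, a log2 difference of -0.18. An exact two-sided permutation test gave p = 0.1, the smallest that 3 libraries against 3 allow (adjusted p = 0.2 over 4 such comparisons). The sum of both genes was 77.6 ± 6.47 FPKM in H196_Co cells (SD, n = 3).

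REST had 7.21, 6.4 and 6.39 FPKM in H196_Mo and 5.16, 6.19 and 5.48 FPKM in H196_Co libraries. The groups did not overlap, as was so for 37.2% of all genes tested, but the log2 fold change of -0.17 (95% interval -0.34 to -0.0057) did not pass (adjusted p = 0.135). It passed without H196_Co replicate 2, the highest of its group (log2 fold change -0.24, adjusted p = 0.0470). Alone, H196 cells held less REST than MRC5 cells, with 6.67 ± 0.471 against 7.91 ± 0.431 FPKM (SD, n = 3). The test across the lines gave a log2 difference of -0.68 with a standard error of 0.064 (adjusted p = 7.64e-11). REST and SYP, a gene known to be repressed through RE1, were both expressed in H196 cells.

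In MRC5 cells grown with H196 cells, the coactivators and the repressor rose. YAP1 had 58.0, 63.4 and 62.3 FPKM in MRC5_CoH196 libraries, each above every MRC5_Mo and MRC5_CoH69 library. Its log2 fold change was 0.33 (standard error 0.041, adjusted p = 7.68e-08). WWTR1 had 14.8, 16.3 and 14.9 FPKM, also above all other MRC5 libraries, and its log2 fold change of 0.40 had a standard error of 0.048 (adjusted p = 4.95e-08). Groups that did not overlap were found for 75.5% of all genes tested. REST had 8.30, 8.98 and 8.27 FPKM, which overlapped with the 7.74, 8.40 and 7.59 FPKM of MRC5_Mo libraries, but did not overlap on the scaled counts of the test (log2 fold change 0.28, standard error 0.051, adjusted p = 2.27e-05). With MYCL, whose rise was bound to appear since it met the filter through the MRC5_CoH196 libraries, 4 of 4 members tested passed, all higher. Of the 12819 genes tested 74.3% passed, 37.2% being higher and 37.1% lower.

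The size of these rises depended on the scale. On log2(FPKM + 1), where the median of all genes moved by -0.13, YAP1 rose by 0.15 (limma, adjusted p = 0.00478) and WWTR1 by 0.21 (limma, adjusted p = 0.00223), while REST was higher by 0.10 and did not pass (limma, adjusted p = 0.140). In MRC5_CoH196 libraries SYP, the member that set the lines furthest apart, had 5, 5 and 0 counts against 3, 2 and 7 in MRC5_Mo libraries, and the NE markers summed to 0.66 to 1.14 FPKM. The fibroblast markers summed to 2566 to 2718 FPKM in MRC5_CoH196 and to 5176 to 5780 FPKM in MRC5_Mo libraries. Of the 10 markers 5 were higher and 4 lower, where 37.2% of all genes were higher and 37.1% lower. By limma on log2(FPKM + 1) 2 were higher and 5 lower, where 3299 of all 12819 genes were higher and 6178 lower. COL1A1 fell by 1.57 on the log2 scale. The part of the fibroblast markers in these results was not tested.

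With H69 cells 0 of 4 members tested passed by edgeR, DESeq2 or limma, where 6.7% of the 12819 genes tested passed by edgeR. By edgeR 1 of the 4 had an unadjusted p under 0.05, as did 2574 of the 12819 genes. YAP1 had 54.5, 54.1 and 56.5 FPKM, WWTR1 13.6, 14.2 and 14.1 FPKM and REST 8.38, 7.98 and 8.11 FPKM in MRC5_CoH69 libraries. The log2 fold changes against MRC5_Mo cells were 0.02 for YAP1 (95% interval -0.06 to 0.11), 0.10 for WWTR1 (0.0046 to 0.20) and 0.06 for REST (-0.04 to 0.17). WWTR1 was higher in each MRC5_CoH69 than in each MRC5_Mo library, as 25.7% of genes were in one direction or the other, and did not pass (adjusted p = 0.221). The co-cultures themselves differed for all 4 members, all higher with H196 cells, where 72.3% of genes passed and 35.7% were higher. YAP1 was higher with H196 than with H69 cells by 0.31 on the log2 scale (adjusted p = 2.77e-07), WWTR1 by 0.30 (adjusted p = 5.49e-06), REST by 0.22 (adjusted p = 0.000483) and MYCL by 1.71 (adjusted p = 0.00018). For MYCL, on 15 to 17 against 5 to 6 counts, this direction too was bound to appear, as it passed the filter through the MRC5_CoH196 libraries.

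**Figure D3:**
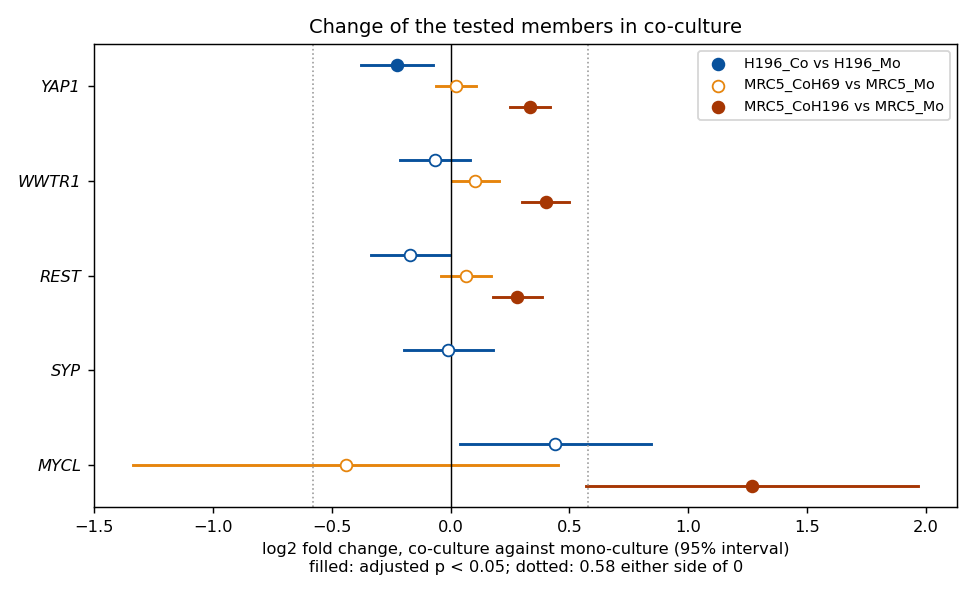
Log2 fold change of the tested members in co-culture against the same line grown alone, with 95% intervals, for H196_Co, MRC5_CoH69 and MRC5_CoH196 cells. Filled points passed at an adjusted p under 0.05, and YAP1 is the member that passed in both lines, at -0.22 in H196_Co and 0.33 in MRC5_CoH196 cells.

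The response of YAP1, WWTR1 and REST to co-culture differed between H196 and MRC5 cells. In one model over all 15 libraries, the log2 fold change in H196_Co cells minus that in MRC5_CoH196 cells was -0.53 for YAP1 (standard error 0.078, adjusted p = 2.22e-06), -0.44 for WWTR1 (standard error 0.080, adjusted p = 4.61e-05) and -0.43 for REST (standard error 0.091, adjusted p = 0.000285). MYCL differed by -0.80 (adjusted p = 0.0856) and SYP by 0.12 (adjusted p = 0.897), and neither passed. Of all genes tested, 51.2% passed this test and 24.1% were on the lower side.

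The ratio of YAP1 to WWTR1 in MRC5 cells moved less than its distance from H196 cells. It was 3.81 to 4.03 in MRC5_CoH69 and 3.89 to 4.18 in MRC5_CoH196 libraries, beside 4.09 to 4.37 in MRC5_Mo libraries. The log2 difference was -0.07 with H196 cells (exact permutation p = 0.3) and -0.09 with H69 cells (exact permutation p = 0.1, adjusted p = 0.2). The sum of both genes was 76.6 ± 3.53 FPKM with H196 cells and 69 ± 1.43 FPKM with H69 cells (SD, n = 3).

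**Figure D4:**
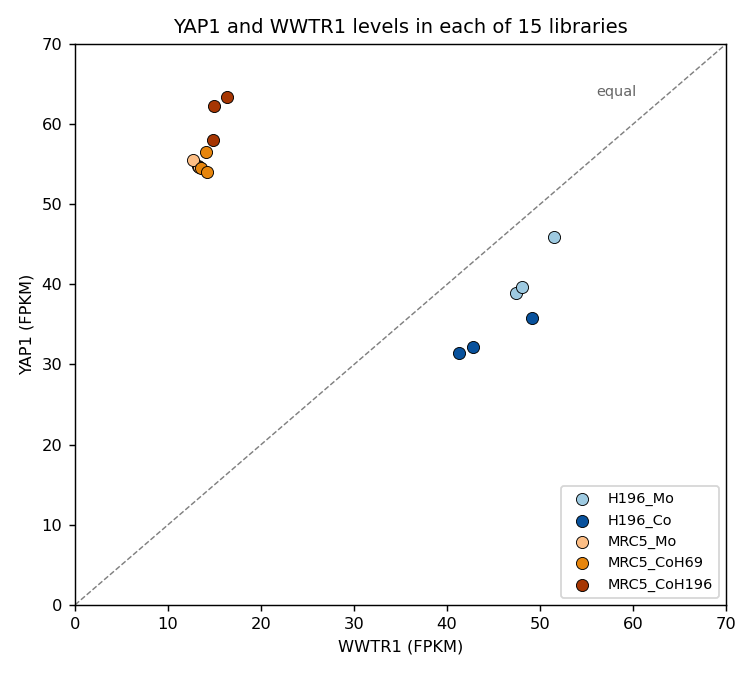
YAP1 against WWTR1 level in FPKM in each of the 15 libraries, coloured by group, with a dashed line where both are equal. H196 libraries lie below the line at ratios of 0.728 to 0.892 and MRC5 libraries above it at ratios of 3.81 to 4.37.

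Around YAP1 and WWTR1, Hippo genes passed in H196_Co cells about as often as genes at large. Of 17 kinases and adaptors, 2 rose in H196_Co cells and 2 fell, where 12% of all genes rose and 7.78% fell (median log2 fold change -0.06, beside -0.0015 over all genes tested). NF2, which encodes merlin, an activator of the pathway, rose by 0.38 on the log2 scale and WWC1, its scaffold partner KIBRA, by 0.27, while the kinases LATS1 and TAOK1 fell by 0.31 and 0.39. By limma on log2(FPKM + 1) WWC1 and LATS1 did not pass. In MRC5_CoH196 cells 14 of the 17 rose and 3 fell, where 37.2% of all genes rose and 37.1% fell (median 0.56, beside -0.0030 over all genes tested). By limma on log2(FPKM + 1) 11 rose and 3 fell, where 3299 of all 12819 genes rose and 6178 fell. The largest rises were LATS2 at 1.45, WWC2 at 0.90, SAV1 at 0.70 and PTPN14 at 0.65. LATS2 encodes a kinase that phosphorylates YAP1 and TAZ, and in H196_Co cells it had a log2 fold change of -0.03 (adjusted p = 0.857). With H69 cells 2 rose and 1 fell by edgeR and 0 passed by DESeq2, where 3.78% of all genes rose and 2.93% fell.

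The TEAD factors differed in level between the lines. TEAD4 was the highest in H196_Mo cells, at 24.4 ± 2.22 FPKM, ahead of TEAD2 at 16.1 ± 0.402, TEAD1 at 11.9 ± 0.680 and TEAD3 at 11.2 ± 0.673 FPKM (SD, n = 3), and the last 2 did not differ beyond their spread. In H196_Co cells TEAD4 rose to 28.3 ± 0.438 FPKM (log2 fold change 0.30, adjusted p = 0.0139) and TEAD2 fell to 12.1 ± 0.328 FPKM (-0.31, adjusted p = 0.0115). TEAD1, at 9.54 ± 1.69 FPKM, and TEAD3, at 10.8 ± 0.111 FPKM, did not pass, and by limma on log2(FPKM + 1) TEAD4 did not pass either. In MRC5_CoH196 cells TEAD1 rose from 27.7 ± 0.446 to 35.4 ± 0.972 FPKM (0.53), while TEAD2 fell from 27.6 ± 1.16 to 13.2 ± 0.352 FPKM (-0.90) and TEAD4 from 10.7 ± 0.584 to 6.08 ± 0.0624 FPKM (-0.66). TEAD3 had 28.8 ± 1.14 FPKM in MRC5_Mo and 25.6 ± 0.578 FPKM in MRC5_CoH196 cells. It did not pass by edgeR but passed as lower by limma on log2(FPKM + 1). Of all genes 37.2% rose and 37.1% fell there by edgeR. Between the lines grown alone, 1 of the 4 TEAD factors was higher in H196_Mo cells and 3 were lower, where 44% of all genes were higher and 42.6% lower.

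Of 21 targets of YAP1 and TAZ tested in H196_Co cells, 8 rose and 2 fell (median 0.14), where more genes rose than fell over the whole table (12% and 7.78%). By limma on log2(FPKM + 1) 5 rose and 3 fell, where 930 of all 12806 genes rose and 1627 fell. CCN1 and CCN2, matricellular proteins and the most used readouts of the pathway, went from 149.7 ± 2.68 to 257 ± 16.5 FPKM and from 31.3 ± 1.57 to 53.4 ± 1.96 FPKM (SD, n = 3), so CCN1 rose by 0.86 (adjusted p = 3.92e-08) and CCN2 by 0.85 on the log2 scale (adjusted p = 4.62e-08). ANKRD1, a nuclear ankyrin repeat protein, rose by 1.68 and IGFBP3, a carrier of insulin-like growth factors, by 1.34, but both had 6 to 14 counts in H196_Mo and 20 to 33 in H196_Co libraries and met the filter on low counts through the latter, so a rise was bound to appear. In MRC5_CoH196 cells 18 of 22 targets rose and 3 fell (median 0.51), beside the 37.2% and 37.1% of all genes. By limma on log2(FPKM + 1) 14 rose and 4 fell, where 3299 of all 12819 genes rose and 6178 fell. Some genes, LATS2 and PTPN14 among them, were on both this list and the Hippo list, so these counts are not separate. IGFBP3 rose by 4.39, LATS2 by 1.45, CCN1 by 1.25 and CCN2 by 1.20. With H69 cells 5 of 22 rose and 2 fell, where 3.78% of all genes rose and 2.93% fell, with TGFB2 at 0.80 and IGFBP3 at 0.68. By limma on log2(FPKM + 1) 2 rose and 2 fell with H69 cells, where 228 of all 12819 genes rose and 176 fell. Between the lines grown alone, 1 of 21 targets was higher in H196_Mo cells and 18 were lower (median -1.80), where 44% of all genes were higher and 42.6% lower. Of the 18, ANKRD1 and IGFBP3 had under 10 counts in an H196_Mo library and were bound to be lower.

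NE transcription factors other than the members did not pass in H196_Co cells (0 of 7 tested by edgeR). Of the 12806 genes tested by edgeR 19.8% passed, and 4294 had an unadjusted p under 0.05, as did 5 of these 7. By DESeq2 0 passed, and by limma on log2(FPKM + 1) SOX2, a stem cell factor, passed as lower, with an edgeR log2 fold change of -0.62 and an adjusted p of 0.057. Those expressed included POU4F1, a POU homeodomain factor of sensory neurons, at 2.53 ± 0.291 FPKM in H196_Mo and 2.39 ± 0.192 FPKM in H196_Co cells, and HES6, a Notch pathway factor, at 15.2 ± 1.16 and 17.1 ± 1.72 FPKM (SD, n = 3). In MRC5_Mo cells HES6 was at 1.38 ± 0.327 FPKM and POU4F1 at 0 in every library, while SOX11, at 3.59 ± 0.215 FPKM (SD, n = 3), was not listed for H196 cells. Of the 6 that could be tested across the lines, 5 met the filter only through H196 libraries and were bound to be higher there, and the 1 other, HES6, was also higher. Among NE effectors 4 of 17 tested rose in H196_Co cells and 0 fell, where 12% of all genes rose. ENO2, the neuron-specific enolase used as an NE serum marker and itself a glycolytic enzyme, went from 54.8 ± 1.18 to 160.1 ± 9.62 FPKM (log2 fold change 1.62, adjusted p = 1.95e-12). L1CAM, a neural adhesion molecule, rose by 1.73, ELAVL3, a neuronal RNA-binding protein, by 1.63 and TUBB3, a neuronal tubulin, by 0.25, while SYP, CHGB and SCG2 of the same list did not pass. By limma on log2(FPKM + 1) 3 rose and 1 fell, as TUBB3 did not pass and BEX1, a small adaptor protein of neurons, passed as lower (edgeR log2 fold change -0.17, adjusted p = 0.183). On that scale 930 of all 12806 genes rose and 1627 fell in H196_Co cells.

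ENO2 and L1CAM also rose in the fibroblasts. ENO2 went from 24 ± 0.318 FPKM in MRC5_Mo to 306.9 ± 16.6 FPKM in MRC5_CoH196 cells (log2 fold change 3.85), and L1CAM from 4.86 ± 0.217 to 19.2 ± 0.918 FPKM (2.15), while TUBB3 fell from 235.7 ± 7.26 to 75.1 ± 3.78 FPKM (-1.48). UCHL1, a neuronal ubiquitin hydrolase, was the most abundant NE effector in both lines grown alone, at 591 ± 24 FPKM in H196_Mo and 561 ± 8.75 FPKM in MRC5_Mo cells. Between the lines grown alone, 13 of 19 NE effectors were higher in H196_Mo cells and 5 were lower, where 44% of all genes were higher and 42.6% lower. Of these, 6 of the 13 and 2 of the 5 had under 10 counts in a library of the lower line and were bound to differ. In MRC5_CoH196 cells 7 of 15 effectors tested rose and 2 fell, where 74.3% of all genes passed and 37.2% rose. By limma on log2(FPKM + 1) 5 effectors rose and 3 fell, where 3299 of all 12819 genes rose and 6178 fell.

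Around REST, 1 of 15 cofactors passed in H196_Co cells by edgeR, where 19.8% of all genes tested passed. By DESeq2 3 cofactors passed (RCOR2, HDAC1 and KDM1A), where 1228 of all 12806 genes rose and 883 fell. By limma on log2(FPKM + 1) 2 passed (RCOR2 and HDAC1), where 930 of all genes rose and 1627 fell. RCOR2, a corepressor, rose from 3.42 ± 0.269 to 5.05 ± 0.139 FPKM (log2 fold change 0.64, adjusted p = 0.000278), and RCOR1 was at 16.5 ± 0.490 and 16.3 ± 1.58 FPKM (SD, n = 3) and did not pass. HDAC1, a histone deacetylase, had 216.8 ± 2.79 FPKM in H196_Mo and 181.2 ± 1.89 FPKM in H196_Co cells (SD, n = 3; log2 fold change -0.18, adjusted p = 0.0566 by edgeR). Its groups did not overlap, where on scaled counts 37.2% of all genes tested had groups that did not overlap. Of 10 genes known to be repressed by REST, 4 rose and 0 fell in H196_Co cells (median 0.29), where 12% of all genes rose and 7.78% fell. The 4 were L1CAM, GRIN1 with 1.24, VGF with 0.36 and TUBB3. L1CAM and GRIN1 were low, at 0.24 and 0.33 FPKM in H196_Mo cells. By limma on log2(FPKM + 1) 3 rose, as TUBB3 did not pass. In MRC5_CoH196 cells, in which REST rose, 7 cofactors rose and 3 fell of 15, with RCOR1 at 0.64 and SIN3A at 0.61, and 5 REST targets rose and 4 fell of 10, where 37.2% of all genes rose and 37.1% fell. By limma on log2(FPKM + 1) 4 cofactors rose and 5 fell, and 3 targets rose and 4 fell. On that scale 3299 of all 12819 genes rose and 6178 fell in MRC5_CoH196 cells. L1CAM rose there while VGF and TUBB3 fell by 1.35 and 1.48. Between the lines grown alone, 5 of 12 REST targets were higher in H196_Mo cells and 5 lower, where 44% of all genes were higher and 42.6% lower. SYP and VGF were on the higher side and L1CAM on the lower. On each side 2 of the 5 had under 10 counts in a library of the lower line and were bound to differ.

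**Figure D5:**
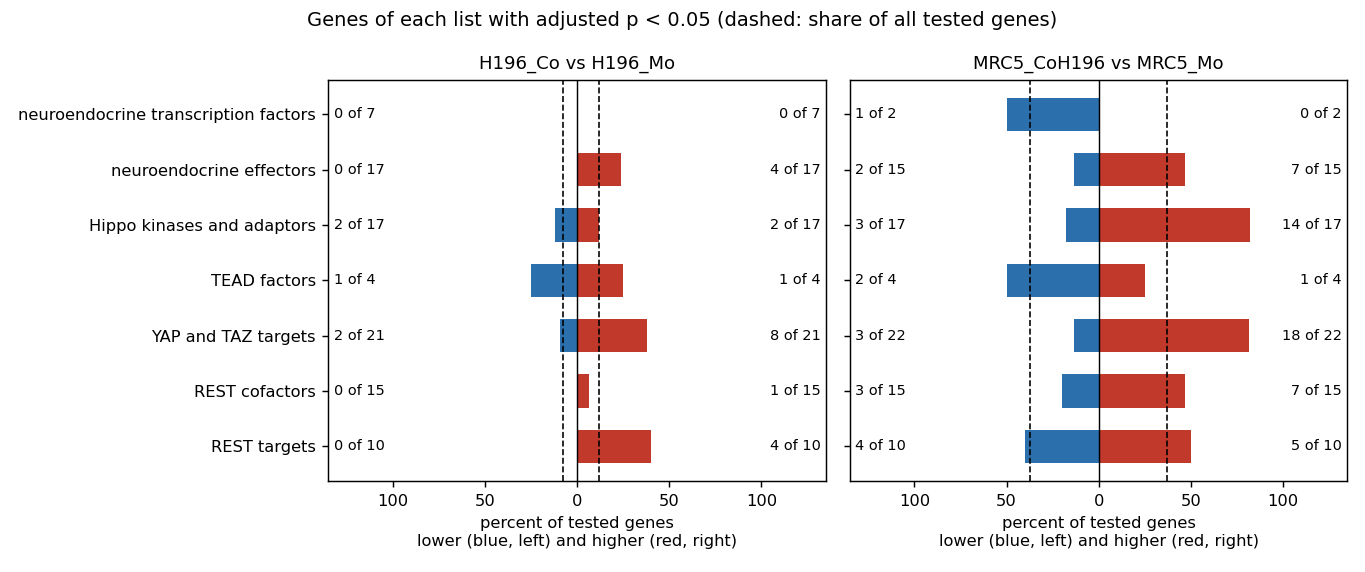
Share of the tested genes of each list that passed at an adjusted p under 0.05 in H196_Co and MRC5_CoH196 cells, lower to the left and higher to the right, with counts at the margins and the share of all tested genes as dashed lines. The Hippo list has 2 higher and 2 lower of 17 in H196_Co cells and 14 higher and 3 lower of 17 in MRC5_CoH196 cells.

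An NE score used for SCLC rests on 25 NE and 25 non-NE genes, with SYP and INSM1 among the former and YAP1 among the latter. Of its NE genes, 12 could be tested in H196 cells, and 1 rose and 1 fell in H196_Co cells (1 and 2 by limma on log2(FPKM + 1)). Of all genes tested 12% rose and 7.78% fell. The TLC domain gene TLCD3B rose by 0.82 and the reticulon RTN1 fell by 0.34, the latter not by DESeq2. Of its non-NE genes 9 rose and 4 fell of 24 tested, beside the same shares of all genes, with CCN1 at 0.86, IFITM2 at 0.71 and RAB27B at -0.53. By limma on log2(FPKM + 1) 6 of them rose and 4 fell, where 930 of all 12806 genes rose and 1627 fell. The 17 tuft cell genes gave 2 that could be tested in H196 cells, and 0 passed by edgeR, DESeq2 or limma. By edgeR 1 of the 2 had an unadjusted p under 0.05, as did 4294 of the 12806 genes tested. Over 9 fibroblast markers listed in H196 cells, the sum was 0.53 to 0.6 FPKM in H196_Co libraries, and COL1A2, at 1191 to 2127 FPKM in MRC5 groups, had at most 1 count there. Of 6 epithelial markers 3 could be tested, and the keratins KRT8 and KRT18 rose by 0.43 and 0.29, KRT18 not by limma on log2(FPKM + 1), while EPCAM had 1 to 8 counts in H196 libraries. The part of the epithelial markers in the results on H196 cells was not tested.

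Over the 15 libraries, genes among the 3 whose log2 CPM followed each member most closely were read out as a description, since all points share 2 lines that differ widely. YAP1 was followed by GOLGA4 and ZFAND6 (Pearson's r of 0.999 and 0.996), WWTR1 by ZBTB10, F2RL1 and AFDN (0.998, 0.998 and 0.997) and REST by TNKS2 and NF1 (0.996 and 0.994). MYCL was followed by ATG16L2, FAHD2B and ZNF581 (0.987, 0.984 and 0.983) and SYP by DISP2 and TUBD1 (0.995 and 0.994). Among the members, REST and YAP1 had an r of 0.994 and WWTR1 and YAP1 an r of -0.89. In FPKM, H196 and MRC5 libraries did not overlap for any of these 5 members.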

How the data were processed

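Poly(A) RNA of 15 libraries was read on a BGIseq-500. Cleaning by the authors used SOAPnuke, and alignment used HISAT against GRCh38.p13 and Bowtie2 against gene sequences. The submitters' processing notes also name HISAT2 2.1.0, Bowtie2 2.3.4.3 and RSEM 1.3.1. The deposited expected counts are estimates of reads per gene without normalization, 92.12% (H196) and 93.68% (MRC5) of them whole numbers. The deposited FPKM values were scaled by the authors to gene length and library size. Columns with fold changes and with p and q values hold comparisons of the authors (DESeq2 in the file headers) and were not used, nor were 30 further columns per library (TPM and normalized counts). Each table came in duplicate, and its copy was not used. Whether strand was used in counting is not given in the sources used here, so reads of SYP, WWTR1, MYCL, NCAM1 and POU2F3 cannot be told apart from those of their antisense genes. The span of YAP1 overlaps that of the noncoding gene YAP1-DT, so reads in that overlap carry the same limit.

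Expected counts were rounded and fitted with edgeR 4.0.16 in R 4.3.3 (TMM factors, filterByExpr, quasi-likelihood tests, two-sided) to the 6 H196 libraries, the 9 MRC5 libraries and all 15 together, over 12806, 12819 and 13585 genes. Groups came from the labels. Alternatives were DESeq2 1.42.0 (size factors, Wald test), limma 3.58.1 with pseudocounts of 1 and 0.1 FPKM on the log2 scale, other filters, a fold change limit of 0.58, the replicate number as a block, fewer libraries and genes absent from one table set to 0. With 3 libraries against 3, exact permutation p-values start at 0.1. Scripts were tested on simulated data. Libraries of a group differed by more than sampling noise. The members and gene lists were chosen with earlier results of these data known. Named are all members and, per list, up to 4 genes that passed with the largest log2 fold change and at least 1 CPM on average, plus CHGA, CHGB, MYC, MYCN, TEAD1 to TEAD4, CCN1, CCN2 and RCOR1. A few genes that the rule names are not reported here. Genes named beyond this rule (SCG2, DLL3, HES6, SOX2, SOX11, BEX1, HDAC1, KDM1A, UCHL1, EPCAM, COL1A2, and POU4F1 and LATS2 where they did not pass) were chosen after their values were seen.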

Additional observations from a re-analysis of the deposited data

Results flagged for a closer look

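The response to co-culture differed between H196 and MRC5 cells for 3 of the 5 members tested. The log2 fold change in H196_Co cells minus that in MRC5_CoH196 cells was -0.53 for YAP1, -0.44 for WWTR1 and -0.43 for REST, each past the adjusted p threshold of 0.05 in edgeR's test of the difference itself, which 51.2% of all genes tested also passed. Under other scalings, filters and tests with all libraries kept, the adjusted p ran from 5.18e-12 to 0.000327 for YAP1, from 1.55e-07 to 0.00274 for WWTR1 and from 1.19e-05 to 0.0135 for REST. The lines were deposited in separate tables and kept in different media, so line, table and medium cannot be told apart.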

How the results depend on the processing

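Of 490 values of members under another setting, 474 kept their direction and side of the threshold. SYP alone changed sign, without passing in any setting: in H196_Co cells to 0.0041, 0.020 and 0.032 without H196_Mo replicate 2, H196_Mo replicate 3 and H196_Co replicate 1 (range with a library left out -0.051 to 0.032), and in the difference of responses to -0.054 on log2(FPKM + 1), to -0.55 without MRC5_Mo replicate 3 and to -0.51 without MRC5_CoH196 replicate 3 (range -0.55 to 0.47). Same-number libraries correlated at -0.151 to 0.0334 in H196 cells and at -0.116 to 0.081 in MRC5 cells. With 3 libraries per group these values cannot tell whether the replicate numbers pair the libraries. With the replicate block YAP1 did not pass in H196_Co cells (log2 fold change -0.22, adjusted p = 0.0709), which left 0 members passing there. The block changed no other member's call. On the log2(FPKM + 1) and log2(FPKM + 0.1) scales REST lost its call in MRC5_CoH196 cells against MRC5_Mo (0.10 and 0.11) and MRC5_CoH69 cells (0.06 on both). The cause was not tested.

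With each library left out, 0 to 2 members and 1559 to 2723 genes passed in H196_Co cells (main counts 1 and 2538), and 384 to 1015 genes in MRC5_CoH69 cells (859). In MRC5_CoH69 cells 404 and 386 genes passed on the FPKM scales. A fold change limit left 494 genes in H196_Co, 4092 in MRC5_CoH196, 71 in MRC5_CoH69, 3618 between the co-cultures and 3357 for the difference of responses, with 0 members in H196_Co, 1 in MRC5_CoH196 (MYCL), 1 between the co-cultures and 0 for the difference of responses. With at least 10 counts in every library, 3 members could be tested between the lines and 3 passed. On log2(FPKM + 1) the share of higher genes among those that passed went from 60.8% to 36.4% in H196_Co, from 50% to 34.8% in MRC5_CoH196, from 49.3% to 33.3% between the co-cultures and from 50.8% to 66.8% between the lines. Depth limited NEUROD1, POU2F3 and NCAM1, at 6 counts or fewer.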
